A study of Mus musculus with 8 samples.

Results

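The mitosis and G2/M genes are 38 genes, chosen by symbol from the 33641 gene symbols measured in tumor endothelial cells (TECs) of mouse lung tumors, by a rule that names symbols only. They encode cyclins and their kinase, mitotic kinases, the spindle checkpoint, kinetochore and spindle proteins, cytokinesis proteins and chromosome proteins. Their mRNAs are made mainly in late S phase, G2 and mitosis and are destroyed or shut off in resting cells, so in a bulk RNA sample their summed level follows how many of the cells are dividing. Adult lung endothelium is largely quiescent, whereas the endothelium of a growing tumor contains dividing cells. A bulk sample cannot tell apart more dividing cells and more mitotic mRNA in each dividing cell.

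The samples were 4 libraries from control mice (C1 to C4) and 4 from endFoxf1+/- mice (H1 to H4), each of CD45-CD31+ cells sorted by FACS from microdissected Lewis lung carcinoma (LLC) tumors at day 21 after tumor cell injection. EndFoxf1+/- mice carried 1 floxed Foxf1 allele and a tamoxifen-inducible Cre under the Pdgfb promoter (Pdgfb-iCreER), and Cre removed exon 1, which encodes the DNA-binding domain of FOXF1, from that allele in the cells in which the Pdgfb promoter is active. The labels call the other mice control and give no alleles, and the study describes them in one place as littermates with the floxed allele alone, in another as littermates with either the floxed allele or Cre, and for the tumor model as C57Bl/6 wild-type mice, so whether each control carried the floxed allele or Cre is not known. Tamoxifen (3 mg by gavage) was given at 6 to 8 weeks of age, and the left lung lobe then received mCherry-labelled LLC cells. The values are TPM, transcript abundances that are scaled for transcript length and library total and keep no record of read number, so the depth is unknown and the error of each value is the spread between libraries. Nothing in the labels says which libraries share a litter or a day, and p-values measure the spread between these samples only.

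Foxf1, the targeted gene, was at 213, 285, 296 and 331 TPM in C1 to C4 and at 177, 203, 14 and 105 TPM in H1 to H4. All 4 endFoxf1+/- libraries lay below all 4 controls (p = 0.0286 in an exact permutation test, two-sided, the least that 70 assignments can give), and H3 was the lowest. The geometric mean of the 20 endothelial markers, relative to the mean of the 4 controls, was 84.5 to 108% within the controls, 100.5% in H1, 105% in H2, 53.2% in H4 and 5.31% in H3. In H3 all 20 endothelial markers lay below every control, and all 15 myeloid markers lay above every control, although none of the endothelial markers was at 0. H3 thus went against its label of CD45-CD31+ cells, H4 held 53.2% of the endothelial marker level of controls, and the counts over each gene list are given with and without these libraries.

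Of the 38 promoters, 34 were in RefSeq's table for GRCm38.p6 as 300 bases around the gene start, 250 before and 50 after it. Genes of this program are known for the cell cycle genes homology region (CHR, searched as TTTGAA or TTCGAA on both strands), which the DREAM complex binds in resting cells and the MYB-MuvB and FOXM1 complexes use in G2, and for nearby CCAAT boxes, which NF-Y binds. A CHR-like match stood in 27 of the 34 member promoters (79.4%), against 21.7% of the 27025 genes in the table. For 25 of the 34, the bases after the start lay in a GENCODE transcript. The window of Kif2c, counted among the 27, lay inside its GENCODE gene. At least 1 CCAAT stood in 79.4% of the member promoters, against 41.1% of all genes, and both motifs stood together in 67.6% against 8.61%. The 7 members without a CHR-like match were Nuf2, Nek2, Nusap1, Cenpe, Birc5, Cks2 and Ccnb1. The sequences of 4 promoters are shown, on the gene's strand, because they belong to the members with the highest fold changes, Ube2c, Plk1 and Racgap1, and to the only member with a negative one, Nek2. Capitals mark the matches to these motifs on either strand, and a run of capitals longer than a motif is a pair of overlapping matches.
Ube2c, chr2:164769679-164769978, plus strand: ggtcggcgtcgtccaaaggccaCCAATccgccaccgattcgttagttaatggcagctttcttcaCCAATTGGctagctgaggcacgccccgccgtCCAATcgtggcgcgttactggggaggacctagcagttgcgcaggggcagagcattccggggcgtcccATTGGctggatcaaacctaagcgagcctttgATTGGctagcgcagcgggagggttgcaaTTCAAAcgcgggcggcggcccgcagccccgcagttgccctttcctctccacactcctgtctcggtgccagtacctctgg
Plk1, chr7:122159185-122159484, plus strand: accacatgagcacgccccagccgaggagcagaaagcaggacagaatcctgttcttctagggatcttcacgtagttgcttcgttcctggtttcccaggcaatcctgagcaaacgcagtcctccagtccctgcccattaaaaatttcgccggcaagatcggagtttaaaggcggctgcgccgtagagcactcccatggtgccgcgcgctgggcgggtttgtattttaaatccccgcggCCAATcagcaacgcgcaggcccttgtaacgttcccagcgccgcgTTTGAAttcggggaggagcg
Racgap1, chr15:99651607-99651906, minus strand: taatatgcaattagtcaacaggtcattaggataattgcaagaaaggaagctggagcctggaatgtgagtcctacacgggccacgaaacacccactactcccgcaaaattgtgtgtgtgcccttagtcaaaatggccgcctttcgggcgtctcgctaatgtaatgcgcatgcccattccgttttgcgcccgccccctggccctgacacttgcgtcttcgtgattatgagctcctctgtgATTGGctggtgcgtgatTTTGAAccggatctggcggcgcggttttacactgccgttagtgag
Nek2, chr1:191821223-191821522, plus strand: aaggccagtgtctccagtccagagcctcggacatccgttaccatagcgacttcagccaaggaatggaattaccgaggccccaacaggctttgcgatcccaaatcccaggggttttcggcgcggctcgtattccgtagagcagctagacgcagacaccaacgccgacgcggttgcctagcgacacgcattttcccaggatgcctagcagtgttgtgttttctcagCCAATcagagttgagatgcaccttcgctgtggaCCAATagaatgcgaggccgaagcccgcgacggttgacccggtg

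In these windows Ube2c held 1 TTTGAA match, which began 29 bases before the gene start, and 6 CCAAT matches. Plk1 and Racgap1 each held 1 CCAAT, 14 and 12 bases before the start, and 1 TTTGAA, beginning at base 31 and base 6 of the transcribed sequence. Nek2 held 2 CCAAT matches and no CHR-like match. A match of these letters is a description of the sequence and does not show binding. Over the members, the median log2 fold change between the genotypes was 0.81 for the 27 with a CHR-like match and 0.94 for the 7 without.

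All 38 members were detected in the sorted cells of both genotypes. Each had at least 1 TPM in all 4 controls, so none entered the analysis through the endFoxf1+/- group alone, and 36 had at least 1 TPM in all 8 libraries. Control means ran from 1.91 TPM for Ttk to 34.5 TPM for Top2a. The question put to the data was whether loss of 1 Foxf1 allele in endothelial cells was accompanied by another level of this program.

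The mitosis and G2/M mRNAs were higher in the endFoxf1+/- libraries, H3 included, for 37 of the 38 members, with a median log2 fold change of 0.90 (1.86-fold) on the log2(TPM + 1) scale, and of 0.54 without H3. Over the 14964 genes tested, 32.0% had a fold change above 0 and the median was -0.17. By limma with Benjamini-Hochberg adjustment over all genes tested, no member passed 0.05 (adjusted p = 0.790 to 0.907) and neither did any other gene (0%). Without adjustment, 19 of 38 members had a limma p under 0.05, all of them higher in endFoxf1+/-, against 2.82% of all genes tested with such a p and a higher level. Leaving out 1 library at a time gave 8 to 33 members with such a limma p, the fewest without C3 and the most without H4. In either direction, such a p was found for 5.59% of all genes tested with all libraries, 3.26% without C3 and 5.95% without H4. All 4 endFoxf1+/- libraries lay above all 4 controls for 11 of the 38 members, against 2.73% of all genes tested, and no member lay wholly below. The groups therefore separated for 11 members and overlapped for 27. In 23 of those 27, 3 of the 4 endFoxf1+/- libraries lay above every control, and the exception was not always H4 (H1 in Cdca3). The share of all genes tested with 3 such libraries was not computed.

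**Figure D1:**
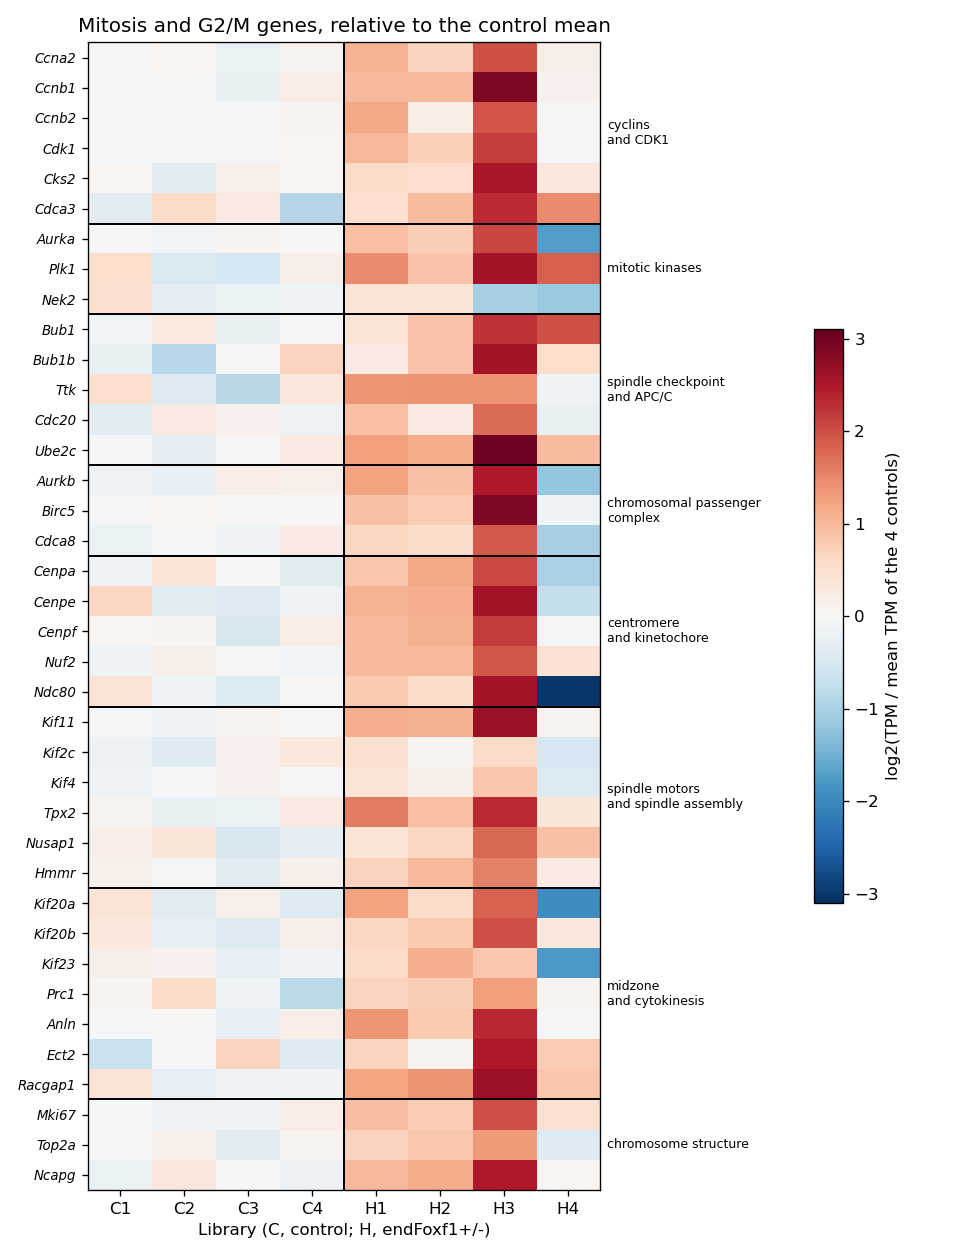
Log2 ratio of TPM to the mean of the 4 controls for each of the 38 members (rows, grouped by role) in each library (columns; C, control, H, endFoxf1+/-), red for higher and blue for lower. H1, H2 and H3 are red over nearly the whole list, H3 most strongly (Ube2c, 8.08 times the control mean), while H4 holds both the red of Bub1 and Plk1 and the blue of Ndc80 (0.124 times).

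The endFoxf1+/- libraries differed widely among themselves. The summed TPM of the 38 members was 310, 304, 278 and 306 in C1 to C4, and 548, 528, 1205 and 309 in H1 to H4. H1 and H2 thus stood together above the controls, H3 stood at 4.02 times the control mean, and H4 stood among the controls. The median member was at 1.91 times its control mean in H1, 1.78 in H2, 4.32 in H3 and 1.04 in H4, where the median of all genes tested was 1.10, 1.09, 0.543 and 0.81. H3 was the highest of the 8 libraries for 35 of the 38 members.

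Counted gene by gene, 35 members in H1, 34 in H2 and 37 in H3 lay above every control, against 35.8%, 34.9% and 16.8% of all genes tested in those libraries. In H4 13 members lay above every control (24.2% of all genes tested did) and 13 lay below every control (49.4% of all genes tested did). The members moved nearly as a block in H1 and H2, where the SD of their log2 ratios to the control mean was 0.33 in each, close to the 0.28 to 0.31 of the controls. That SD was 0.77 in H3 and 1.02 in H4, so in H4 the members kept their summed level but scattered, from 0.124 times the control mean for Ndc80 to 3.93 times for Bub1. H4 also listed the most genes at 0 TPM, 15679 against 13151 to 13909 in the other libraries, and the gene Gm20594 took 21.8% of its TPM, against 5.11 to 11.3% in the others. The part of either in the scatter was not tested.

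**Figure D2:**
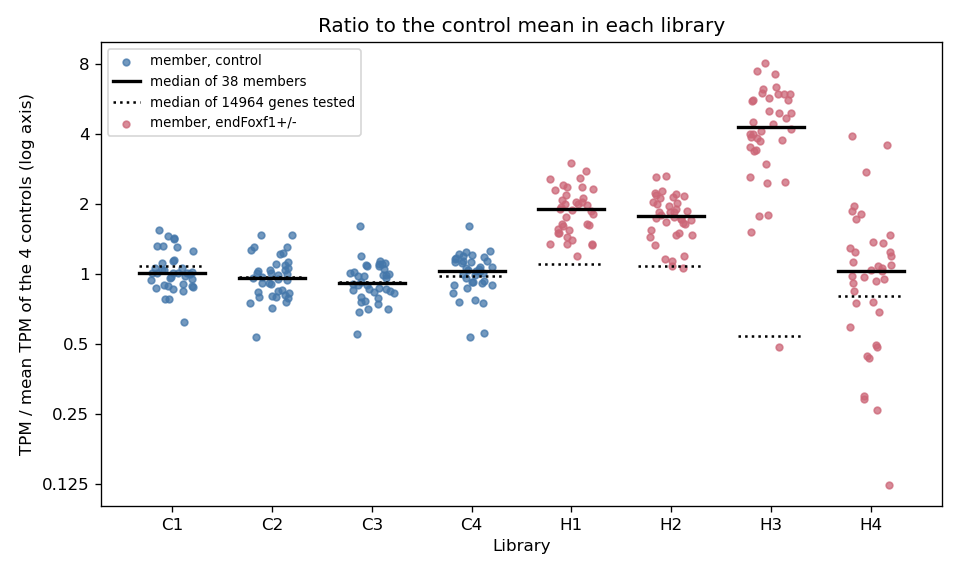
TPM of each of the 38 members (points) divided by its mean in the 4 controls, on a log axis, for each library; the solid line is the median member and the dotted line the median of all 14964 genes tested. The median member is at 1.91, 1.78, 4.32 and 1.04 in H1 to H4, and the points of H4 spread the widest.

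Without H3 and H4, all 38 members had a fold change above 0, with a median of 0.79 against 0.14 over all genes tested. In that fit of 4 controls against H1 and H2, 30 members had an unadjusted limma p under 0.05, against 9.87% of all genes tested with such a p and a higher level, and none had an adjusted p under 0.05 (smallest 0.165, Benjamini-Hochberg). Both H1 and H2 lay above every control for 32 members, against 20.2% of all genes tested. Set against the median of all genes tested, the median member was 1.07 higher on the log2 scale with all 8 libraries and 0.65 higher with H1 and H2 alone, the endFoxf1+/- libraries whose endothelial marker level lay in the range of the controls. Without H3 alone that difference was 0.52. With array weights, which let limma give each library a weight from its own scatter, H3 received 0.064, H4 0.18 and the other libraries 1.17 to 3.85, and 11 members passed an adjusted p of 0.05, all higher in endFoxf1+/-, against 0.668% of all genes tested. These 11 were Ccna2, Cdk1, Plk1, Ube2c, Birc5, Nuf2, Kif11, Tpx2, Anln, Racgap1 and Mki67. Without H3 alone, the median fell to 0.54 and 36 members stayed above 0, where 51.7% of all genes tested were above 0. In that fit 13 members, all higher, had an unadjusted limma p under 0.05, against 4.83% of all genes tested with such a p and a higher level.

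Markers of other cells moved with part of this pattern. The geometric mean of the 15 myeloid markers, which include the CD45 gene Ptprc, ranged over 53.6 to 122% of its control mean among C1 to C4, and was 169% in H1, 207% in H2, 1382% in H3 and 133% in H4. Of these 15 markers, 10 in H1, 12 in H2, 15 in H3 and 4 in H4 lay above every control, and their summed TPM ran from 1556 to 5315 in controls and from 2279 to 11502 in endFoxf1+/-. Ptprc itself, which the CD45- gate should exclude, was at 8.21, 6.42, 9.13 and 2.94 TPM in C1 to C4 and at 16.5, 9.93, 91.2 and 6.61 TPM in H1 to H4, and no myeloid marker was at 0 in any library. H3 was the highest library for both the members and the myeloid markers, and the part of the myeloid cells in the members' level was not tested.

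The 13 lymphoid markers summed to 30.4 to 43.8 TPM in controls and to 19.9 to 107 TPM in endFoxf1+/-. The 12 fibroblast and pericyte markers summed to 108 to 173 TPM in controls and to 145.5 to 1349 TPM in endFoxf1+/-, highest in H3. Their geometric mean in H3 was 187% of the control mean, and there 5 of the 12 lay above every control and 4 below every control. The 12 epithelial markers summed to 6912 to 32596 TPM in controls and to 1626 to 26869.5 TPM in endFoxf1+/-, and were lowest in H3 and H2, with Cldn4 at 0 in H3 and H4. The 9 erythroid and platelet markers summed to 958 to 1971 TPM in controls and to 411 to 992 TPM in endFoxf1+/-. No separate marker of the LLC tumor cells was examined, and the part of any of these cells in the members' level was not tested.

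**Figure D3:**
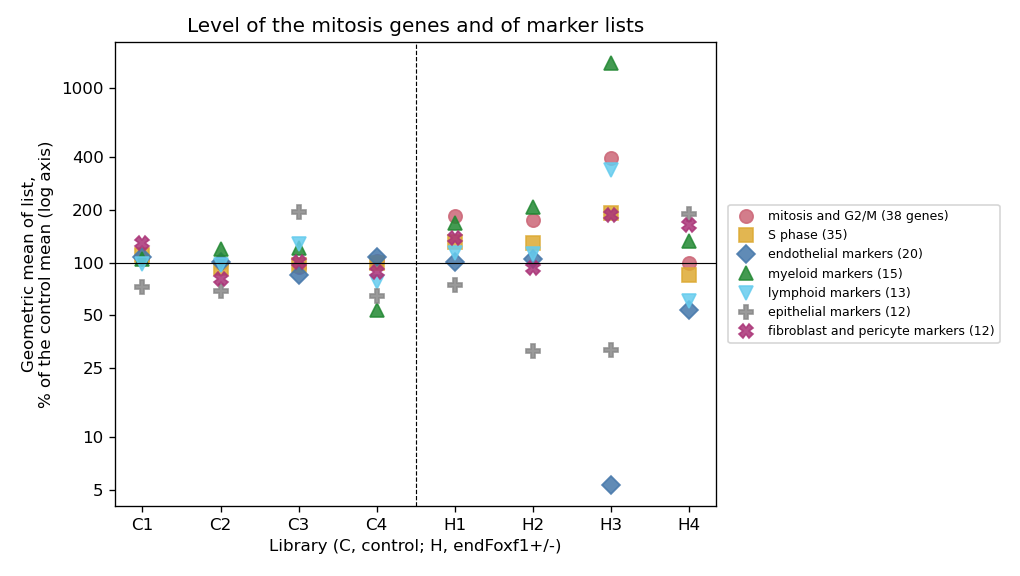
Geometric mean of TPM + 1, less 1, over the 38 members, the S phase genes and lists of cell type markers, as a percent of the mean of the 4 controls (log axis), by library. In H1 and H2 the members are at 186% and 174% with endothelial markers at 100.5% and 105%; in H3 the members are at 395% with endothelial markers at 5.31% and myeloid markers at 1382%.

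The cyclins and their kinase start mitosis: cyclin A2 and the B cyclins activate CDK1, CKS2 helps CDK1 bind its substrates, and CDCA3 takes part in the destruction of the mitosis inhibitor WEE1. All 6 were higher in endFoxf1+/- (median log2 fold change 0.94), 4 had an unadjusted p under 0.05, and in Ccna2 and Cks2 the groups did not overlap. Without H3 the median was 0.56 and 3 had such a p, without C3 only 1 had, and without H4 all 6 had. The shares of all genes tested with such a p, given above for each fit, apply to this and the later role groups. Ccna2 was at 10.1, 10.3, 8.65 and 10.7 TPM in C1 to C4 and at 20.8, 16.4, 38.8 and 11.2 TPM in H1 to H4. H4 exceeded the highest control by little, and the log2 fold change was 0.92, SE 0.35. Cdk1, the most abundant of the 6, was at 13.4, 14.1, 14 and 14.6 TPM in controls and at 28.5, 23.4, 62.1 and 13.7 TPM in H1 to H4, a log2 fold change of 0.93, SE 0.40. Its controls were nearly equal, and H4 fell among them while H1, H2 and H3 stood far above. Without H3 the value of Cdk1 was 0.55, with an unadjusted limma p above 0.05.
Cdca3, with the highest fold change of the group (log2 1.22, SE 0.40), was at 3.31, 6.23, 5.03 and 2.25 TPM in controls and at 6.06, 8.3, 20.8 and 11.5 TPM in endFoxf1+/-. H1 fell inside the wide range of its controls, and H4 was here above them all. Ccnb1 was at 2.89, 2.7, 2.38 and 3.27 TPM in controls and at 5.61, 5.69, 21.1 and 3.08 TPM in endFoxf1+/- (log2 fold change 1.06, SE 0.47). Ccnb2, with the lowest fold change (0.79, SE 0.39), was at 7.09, 6.67, 6.77 and 7.45 TPM and at 16.2, 8.15, 26.9 and 7.22 TPM. For both B cyclins H4 was level with the controls, and H2 exceeded the highest control for Ccnb1 by much and for Ccnb2 by little. Without H3 the fold changes of Ccnb1 and Ccnb2 were 0.57 and 0.45, both with an unadjusted p above 0.05.

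The mitotic kinases split. PLK1, which drives mitotic entry, centrosome maturation and cytokinesis, had the second highest fold change of all members (log2 1.40, SE 0.36), with Plk1 at 3.24, 1.59, 1.53 and 2.52 TPM in controls and at 6.17, 4.13, 13.2 and 7.95 TPM in endFoxf1+/-. Every endFoxf1+/- library, H4 included, lay above every control (exact permutation test, p = 0.0286). Nek2, whose kinase separates the centrosomes before mitosis, was the most abundant of the 3 kinases and the only member of the 38 with a fold change below 0, at 28.4, 16.1, 17.2 and 18.3 TPM in controls and at 27, 26.7, 9.76 and 8.95 TPM in endFoxf1+/- (log2 fold change -0.27, SE 0.41). H1 and H2 lay within the controls, near C1, and H3 and H4 lay below them all, so that without H3 and H4 its fold change became 0.44. Reads of an antisense transcript that overlaps a Nek2 exon cannot be told apart from its own, since the library kit does not mark strand. Aurka, the kinase of the spindle poles, lay above every control in 3 endFoxf1+/- libraries and was at 1.19 TPM in H4, below them all. Without H3 the log2 fold change of Aurka went from 0.52 to 0.079, and that of Plk1 was 1.14.

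The spindle checkpoint holds the anaphase-promoting complex (APC/C) inactive until every chromosome is attached, and CDC20 and UBE2C are the activator and the ubiquitin-conjugating enzyme with which the APC/C then destroys cyclin B. All 5 genes of this group were higher in endFoxf1+/- (median log2 fold change 0.98), and 3 had an unadjusted p under 0.05. Without H3 the median was 0.72 and 2 had such a p, as did 2 without C3 and 4 without H4. Ube2c had the highest fold change of the 38 members (log2 1.58, SE 0.42), at 23.1, 19.2, 23.2 and 28.8 TPM in C1 to C4 and at 57.1, 52.5, 190.3 and 46.4 TPM in H1 to H4, means of 23.6 ± 3.92 (SD, n = 4) and 86.6 ± 69.3 TPM (SD, n = 4). The lowest endFoxf1+/- library, H4, lay well above the highest control, and H3 was 8.08 times the control mean (exact permutation test, p = 0.0286). Bub1, a checkpoint kinase, was at 2.99, 3.9, 2.71 and 3.06 TPM in controls and at 4.26, 5.87, 14.9 and 12.4 TPM in endFoxf1+/- (log2 fold change 1.18, SE 0.38). Here H4 was nearly as high as H3, and H1 was just above the highest control.
Ttk, which encodes the checkpoint kinase MPS1, was at 2.74, 1.46, 1.06 and 2.38 TPM in controls and at 4.96, 5.04, 5.03 and 1.78 TPM in endFoxf1+/- (log2 fold change 0.81, SE 0.35). H1, H2 and H3 were level with each other, and H4 fell among the controls. Cdc20, with the lowest fold change of the group (log2 0.65, SE 0.39), was at 5.86, 9.16, 8.22 and 6.78 TPM in controls and at 14.3, 9.04, 25.5 and 6.38 TPM in endFoxf1+/-, where H2 and H4 lay within the controls. Without H3 the fold change of Cdc20 was 0.31.

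The chromosomal passenger complex corrects faulty attachments and is made up here of the kinase gene Aurkb and the genes for its partners survivin (Birc5) and borealin (Cdca8). None of the 3 had an unadjusted p under 0.05, yet H1, H2 and H3 lay above every control for all 3, and H4 lay below every control for all 3. Birc5 was at 11.3, 12.3, 11.5 and 11.7 TPM in controls and at 21.9, 20.3, 84.8 and 10.7 TPM in endFoxf1+/- (log2 fold change 1.06, SE 0.52). Cdca8 was at 11.1, 13.1, 11.4 and 15.2 TPM in controls and at 19.9, 18.7, 47.8 and 6.18 TPM in endFoxf1+/- (log2 fold change 0.52, SE 0.50). Without H3 and H4 all 3 genes had an unadjusted limma p under 0.05, and the log2 fold change of Birc5 was 0.80. Without H3 alone, the log2 fold changes were 0.49 for Birc5, 0.078 for Cdca8 and 0.33 for Aurkb, and none of the 3 had such a p.

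Of the 5 centromere and kinetochore genes, which build the site where microtubules attach, all were higher in endFoxf1+/- (median log2 fold change 0.88) and 2, Nuf2 and Cenpf, had an unadjusted p under 0.05. Without H3 the median was 0.44, and 4 of the 5 were higher, with Nuf2 the only one with such a p. Without C3 also 1 had such a p, and without H4 all 5 had. Nuf2, a subunit of the NDC80 complex that grips the microtubule, was at 3.32, 4.11, 3.73 and 3.42 TPM in controls and at 7.32, 7.48, 13.8 and 4.97 TPM in endFoxf1+/- (log2 fold change 0.94, SE 0.31). All 4 endFoxf1+/- libraries lay above the controls. Ndc80, its partner in the same complex, was at 4.29, 2.95, 2.41 and 3.29 TPM in controls and at 5.7, 4.77, 19.2 and 0.401 TPM in endFoxf1+/- (log2 fold change 0.46, SE 0.67). The partners thus parted in H4, where Nuf2 stood above every control and Ndc80 was at the lowest value of any member in any library.
Cenpa, the histone H3 variant that marks the centromere, was the most abundant of the group, at 10.8, 15.8, 12.2 and 9.36 TPM in controls and at 21.9, 27.5, 49.7 and 6.01 TPM in endFoxf1+/- (log2 fold change 0.77, SE 0.53). Cenpf, a farnesylated protein of the outer kinetochore, was at 3.68, 3.73, 2.49 and 4.15 TPM in controls and at 7.07, 7.51, 15.9 and 3.36 TPM in endFoxf1+/- (log2 fold change 0.92, SE 0.40). In both, H1, H2 and H3 lay above every control, and H4 was below the lowest control for Cenpa and within the controls for Cenpf. Without H3 the log2 fold changes were -0.14 for Ndc80, 0.37 for Cenpa, 0.44 for Cenpe, 0.58 for Cenpf and 0.69 for Nuf2.

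The spindle motors and assembly factors were all 6 higher in endFoxf1+/- (median log2 fold change 0.83), and 4 had an unadjusted p under 0.05. Without H3 the median was 0.59 and 4 had such a p, without C3 only 1 had, and without H4 4 had. Tpx2, which activates AURKA on the spindle, was at 3.78, 3.04, 3.08 and 4.29 TPM in controls and at 10.7, 6.78, 17.5 and 4.6 TPM in endFoxf1+/- (log2 fold change 1.13, SE 0.37). Hmmr, which binds hyaluronan and spindle microtubules, was at 6.49, 5.65, 4.58 and 6.55 TPM in controls and at 9.62, 11.7, 17.3 and 6.99 TPM in endFoxf1+/- (log2 fold change 0.81, SE 0.30). Nusap1, which bundles spindle microtubules, was at 5.39, 6.14, 3.34 and 3.9 TPM in controls and at 6.25, 7.26, 16.1 and 8.8 TPM in endFoxf1+/- (log2 fold change 0.84, SE 0.33). The groups did not overlap in these 3 genes, although H4 exceeded the highest control by little in Tpx2 and Hmmr, as H1 did in Nusap1, whose exons also overlap those of Oip5.
Kif11, the motor that pushes the spindle poles apart, was at 3.29, 3.1, 3.67 and 3.49 TPM in controls and at 7.41, 7.27, 21.7 and 3.67 TPM in endFoxf1+/- (log2 fold change 1.08, SE 0.44), and H4 and the highest control, C3, had nearly the same value. Kif2c, a kinesin that takes microtubules apart at the centromere, had the highest control mean of the group and its lowest fold change (0.18, SE 0.30), at 6.94, 5.94, 8.71 and 9.94 TPM in controls and at 11.1, 8.43, 12 and 5.45 TPM in endFoxf1+/-. Kif2c was 1 of the 3 members in which only 2 endFoxf1+/- libraries exceeded every control, and here H3 did not stand apart from H1. Without H3 the fold change was 0.65 for Kif11 and 0.045 for Kif2c.

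The genes of the spindle midzone and cytokinesis, which place and close the furrow between the daughter cells, were all 7 higher in endFoxf1+/- (median log2 fold change 0.79), with 3 at an unadjusted p under 0.05. Without H3 the median was 0.48 and Racgap1 alone had such a p, without C3 also only 1 had, and without H4 6 had. Racgap1, the GTPase-activating subunit of centralspindlin, was at 5.11, 3.23, 3.59 and 3.6 TPM in controls and at 9.01, 10.2, 24.4 and 7.08 TPM in endFoxf1+/- (log2 fold change 1.35, SE 0.37). The groups did not overlap (exact permutation test, p = 0.0286). Kif23, the kinesin subunit of the same centralspindlin, was the most abundant of the group, at 20.3, 19.5, 15 and 16.5 TPM in controls and at 26.9, 39.1, 31.9 and 5.17 TPM in endFoxf1+/- (log2 fold change 0.22, SE 0.53). The pair parted in H4 as Nuf2 and Ndc80 did, with Racgap1 above and Kif23 below every control, and without H3 and H4 both were higher (log2 fold changes of 1.13 and 0.84).
Anln, whose product anillin links the furrow's actin, myosin and septins, was at 6.18, 6.18, 5.09 and 7.01 TPM in controls and at 15.8, 10.7, 30.8 and 6.03 TPM in endFoxf1+/- (log2 fold change 1.03, SE 0.42). Kif20b, a kinesin of late cytokinesis, was at 3.69, 2.48, 2.24 and 3.33 TPM in controls and at 4.56, 5.15, 11.8 and 3.66 TPM in endFoxf1+/- (log2 fold change 0.79, SE 0.35). In both genes H1, H2 and H3 exceeded every control and H4 lay within them. Without H3 the fold changes were 0.65 for Anln, 0.48 for Kif20b and 0.027 for Kif23.

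Of the chromosome genes, Mki67, the proliferation marker Ki-67 that coats mitotic chromosomes, was at 14, 12.8, 12.8 and 16.5 TPM in C1 to C4 and at 27.4, 24.2, 56.5 and 19.4 TPM in H1 to H4, means of 14 ± 1.74 (SD, n = 4) and 31.9 ± 16.8 TPM (SD, n = 4) and a log2 fold change of 1.02, SE 0.33. All 4 endFoxf1+/- libraries lay above every control (exact permutation test, p = 0.0286). The paper described endothelial proliferation in LLC tumors as low by staining for Ki-67 protein. Its percentage of Ki-67-positive endothelial cells did not differ significantly between the genotypes. Protein in stained sections and mRNA in sorted cells were not compared here. Top2a, the topoisomerase that untangles sister chromatids, had the highest control mean of the 38 members, at 34.9, 38.3, 27.6 and 37.1 TPM in controls and at 56.6, 61.9, 85.7 and 26.1 TPM in endFoxf1+/- (log2 fold change 0.62, SE 0.34). H4 was below every control for Top2a. Ncapg, a condensin subunit, was at 1.89, 2.8, 2.17 and 1.93 TPM in controls and at 4.52, 4.91, 12.2 and 2.29 TPM in endFoxf1+/- (log2 fold change 0.95, SE 0.40), with H4 inside the controls. An unadjusted limma p under 0.05 was found for Mki67 and Ncapg with all libraries and for Mki67 alone without H3, where the fold changes were 0.71 for Mki67, 0.58 for Ncapg and 0.39 for Top2a. Without C3, 1 of the 3 had such a p, and without H4 all 3 had.

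**Figure D4:**
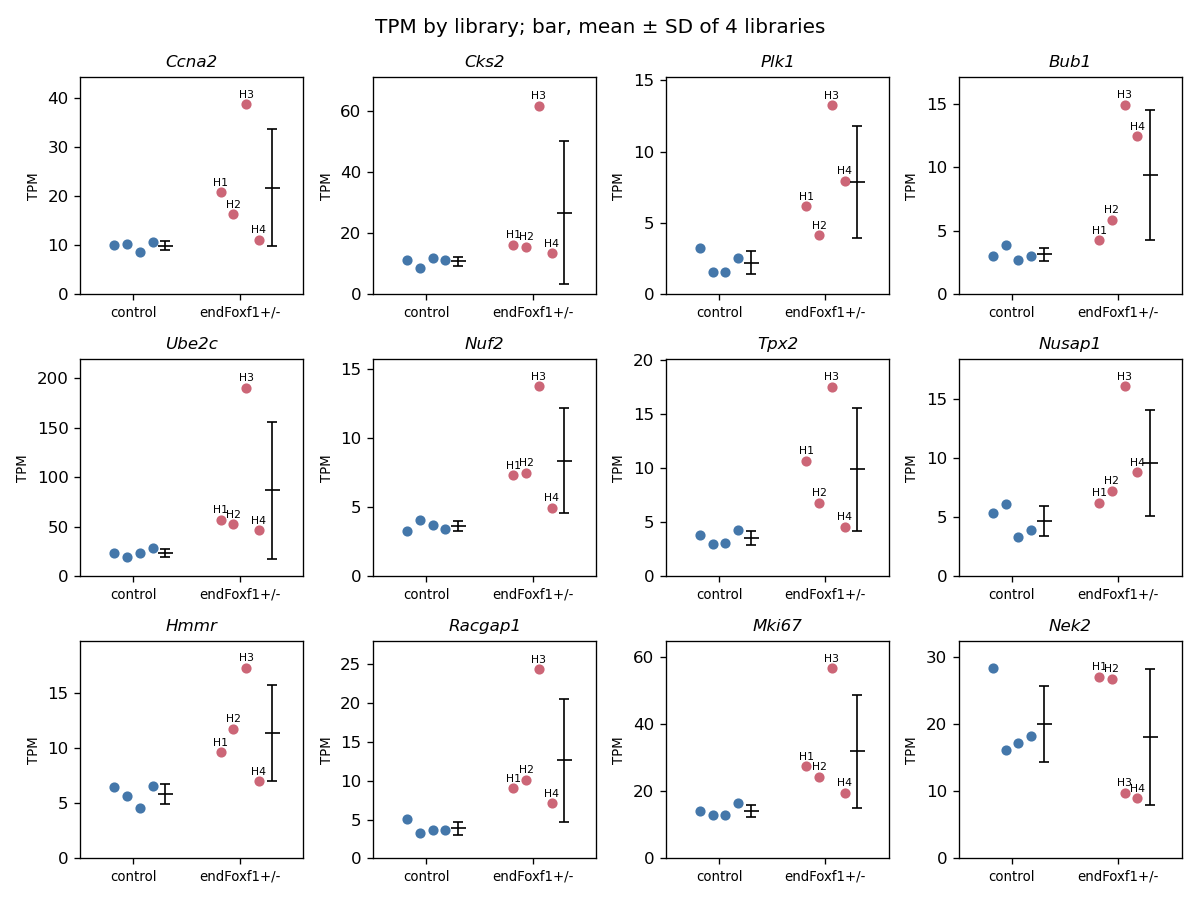
TPM in each library (points; blue, control, red, endFoxf1+/-) with the mean ± SD of 4 libraries beside them, for the 11 members whose groups did not overlap and for Nek2. H3 is the highest point in the 11 panels, and H4 is below H1 and H2 in Ccna2, Cks2, Ube2c, Nuf2, Tpx2, Hmmr, Racgap1 and Mki67.

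The 9 members not given library by library, Cks2, Aurka, Bub1b, Aurkb, Cenpe, Kif4, Kif20a, Prc1 and Ect2, had log2 fold changes of 0.23 to 0.98 and unadjusted limma p-values of 0.055 to 0.43. Among them Cks2 was above every control in all 4 endFoxf1+/- libraries, Bub1b in 2, and the other 7 in 3. Kif20a, the kinesin of the midzone, was the other member under 1 TPM in a library, at 0.683 TPM in H4.

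Exons of 12 members overlap those of another gene, and reads of the pair cannot be told apart without strand: Top2a, Ccna2, Cdc20, Cdca8, Plk1, Nek2, Kif20a, Kif4, Prc1, Nusap1, Ube2c and Ncapg. The other 26 members have no such overlap in GENCODE M21.

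**Figure D5:**
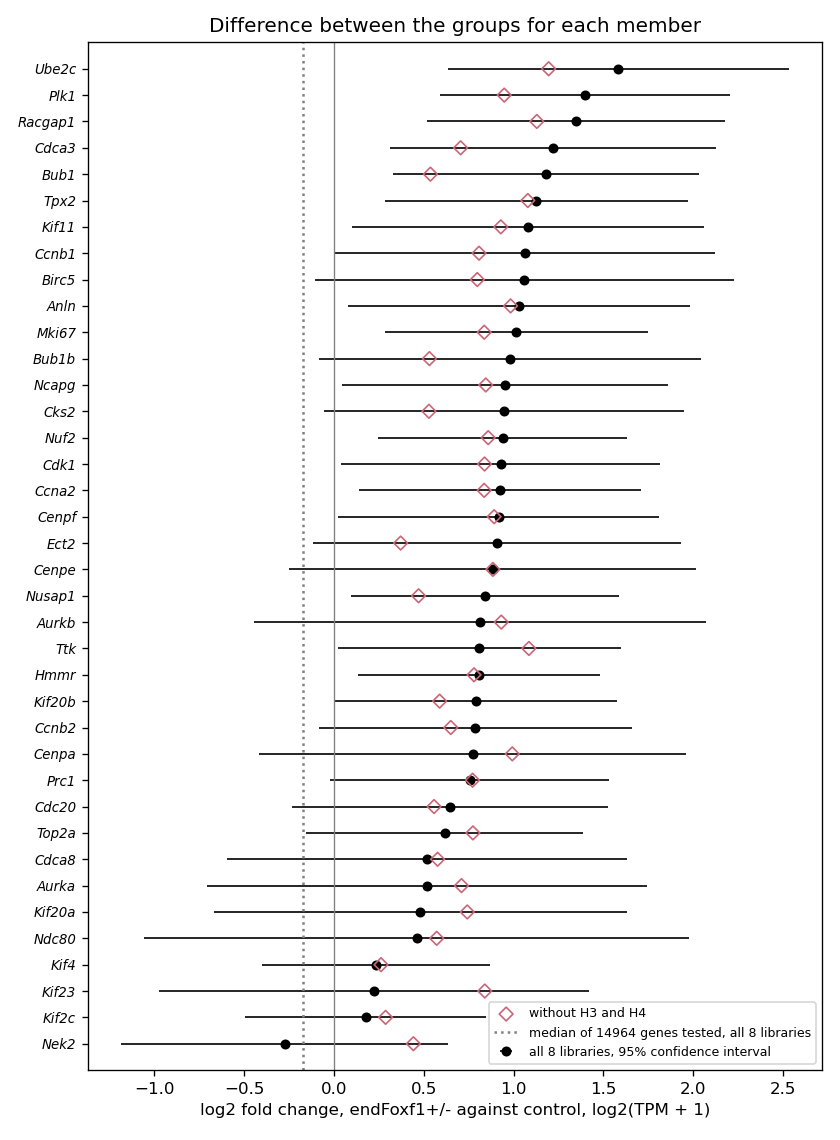
Log2 fold change of each member between endFoxf1+/- and control on the log2(TPM + 1) scale, with its 95% confidence interval from limma over 8 libraries (black) and its value without H3 and H4 (open diamonds). The values run from -0.27 for Nek2 to 1.58 for Ube2c, and all 38 diamonds lie above 0.

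Other genes of the program were taken from a wider list of mitosis genes and from a list of the factors that regulate it. Of 80 other mitosis genes 78 were tested, and of these 65 were higher and 13 lower in endFoxf1+/-, with a median log2 fold change of 0.44. By limma none had an adjusted p under 0.05 in either direction, and 20 had an unadjusted p under 0.05, all higher. Of all genes tested with all libraries, 32.0% were higher and 2.82% had such a p with a higher level. Without H3 and H4, 75 were higher and 37 had such a p, all higher, and without H3 alone 65 were higher and 16 had such a p with a higher level. Without C3 13 had such a p, and without H4 31, where 3.26% and 5.95% of all genes tested had one in either direction. Of all genes tested without H3 and H4, 70.7% were higher and 9.87% had such a p with a higher level. Without H3 alone these shares were 51.7% and 4.83%. With array weights 5 passed the adjusted threshold, all higher, against 0.668% of all genes tested that passed and were higher. The 3 with the smallest p were Cep55, which acts at the last cut between daughter cells, Tacc3, which stabilizes spindle fibers, and Pbk, a mitotic kinase. Cep55 was at 1.06, 1.74, 0.764 and 1.74 TPM in controls and at 4.35, 3.05, 7.47 and 4.56 TPM in endFoxf1+/- (log2 fold change 1.31, SE 0.31). Tacc3 was at 9.48, 8.1, 6.94 and 11.2 TPM in controls and at 20.6, 15.4, 41.9 and 24.2 TPM in endFoxf1+/- (log2 fold change 1.34, SE 0.32). Pbk was at 3.17, 2.82, 2.82 and 2.69 TPM in controls and at 6.04, 6.67, 11.6 and 6.36 TPM in endFoxf1+/- (log2 fold change 1.12, SE 0.27). In all 3 every endFoxf1+/- library lay above every control, and H4 was among them.

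Of 35 regulators 34 were tested, and of these 19 were higher and 15 lower (median log2 fold change 0.14), none passed the adjusted threshold in limma, and 4 higher and 1 lower had an unadjusted p under 0.05. Of all genes tested, 32.0% were higher and 2.82% had such a p with a higher level. Without H3 and H4, 26 were higher, 6 of them with such a p, and none that was lower had one, where 70.7% of all genes tested were higher and 9.87% had such a p with a higher level. Without H3 alone 23 were higher and 5 of them had such a p. Of all genes tested, 51.7% were higher and 4.83% had such a p with a higher level in that fit. Without C3 2 that were higher had one, against 3.26% of all genes tested in either direction. Foxm1, the forkhead factor that drives G2/M genes, was at 6.14, 7.78, 8.49 and 6.18 TPM in controls and at 10.8, 14.2, 14.2 and 8.91 TPM in endFoxf1+/- (log2 fold change 0.66, SE 0.25). Its groups did not overlap, and without H3 and H4 the value was 0.72. Mybl2, whose product B-MYB joins the MuvB complex at these promoters, was at 3.36, 1.75, 1.88 and 1.49 TPM in controls and at 2.72, 4, 7.85 and 3.59 TPM in endFoxf1+/- (log2 fold change 0.79, SE 0.34). H1 lay within the controls of Mybl2, and without H3 and H4 the fold change was 0.50 and the unadjusted p was above 0.05. The lowest p among genes that were lower belonged to Cdkn1c, the CDK inhibitor p57, at 3.41, 6.06, 8.15 and 8.94 TPM in controls and at 5.05, 1.92, 0.441 and 2.21 TPM in endFoxf1+/- (log2 fold change -1.28, SE 0.45).
H1 lay within the controls of Cdkn1c, and the other 3 endFoxf1+/- libraries lay below them. Without H3 and H4 the fold change of Cdkn1c was -0.79, also with an unadjusted p above 0.05. Ccnd3, a G1 cyclin, and Tubb4b, a tubulin from the list of other mitosis genes, followed in that direction over both lists. Their log2 fold changes were -0.58, SE 0.30 and -0.57, SE 0.34, and neither had groups that separated. Cdkn1a, the p53 target p21, was at 1975, 679, 1028 and 1715 TPM in controls and at 1385, 1281, 1061 and 832 TPM in endFoxf1+/- (log2 fold change -0.15, SE 0.40), and all 4 endFoxf1+/- values lay within the range of the controls.

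Of the 35 genes of DNA replication and S phase, which precede the mitosis genes in the cycle, 32 were higher in endFoxf1+/-, with a median log2 fold change of 0.29, and 3 had an unadjusted limma p under 0.05. Of all genes tested, 32.0% were higher and 2.82% had such a p with a higher level. Without H3 and H4, 34 were higher (median 0.37) and 6 had such a p, where the shares of all genes tested were 70.7% and 9.87%. Without H3 alone 26 were higher (median 0.15) and 3 had such a p, where these shares were 51.7% and 4.83%. Without C3 1 had such a p, and without H4 10, where 3.26% and 5.95% of all genes tested had one in either direction. The median S phase gene was at 1.31, 1.26, 1.80 and 0.795 times its control mean in H1 to H4, where the median mitosis and G2/M gene was at 1.91, 1.78, 4.32 and 1.04. The order of H1 to H4 was the same in both lists. Only for the S phase genes did H4 lie below the control medians, which were 0.92 to 1.07. The difference between the lists was not tested.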

How the data were processed

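RNA-seq of sorted CD45-CD31+ TECs from 4 control and 4 endFoxf1+/- mice was analysed from 1 table per library. The authors deposited TPM per gene symbol, normalized for transcript length and library total (each library sums to 1000000), with 33641 symbols in every table. The submitters' processing notes list TopHat, Cufflinks, Subread and DESeq2 and the builds GRCm38 and mm10, and the tool behind the TPM is not given in the sources used here. Libraries were prepared with Nextera XT. Groups were taken from the genotype labels, and the replicate numbers only name libraries.

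The deposited TPM were taken without rescaling and put on a log2(TPM + 1) scale, so fold changes understate those of low genes. The 14964 genes with at least 1 TPM in at least 4 libraries were tested with limma 3.58.1 in R 4.3.3 (eBayes with trend, two-sided, Benjamini-Hochberg, threshold 0.05), and single genes by an exact two-sided permutation test over 70 assignments. The script was tested on simulated data. No 2 of the 8 libraries were identical. Members and gene lists were chosen with earlier results of these data known. Library values were given for the member of highest mean TPM and those of highest and lowest fold change in each role group, and for any with an unadjusted p under 0.05 (29 of 38), and, of the other mitosis genes and regulators together, for the 3 of smallest p in each direction plus Foxm1, Mybl2 and Cdkn1a. Coordinates follow GENCODE M21, and promoters are from RefSeq (GRCm38.p6). The promoters of Ccna2, Aurkb, Tpx2 and Kif20a had no entry. Alternatives were other pseudocounts (0.1 and 5), minimum TPM, scalings, variance models and left-out libraries.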

Additional observations from a re-analysis of the deposited data

Results flagged for a closer look

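Dixon's ratio, the gap between the most extreme library and its neighbour divided by the range of the 4 libraries of a group, was computed on the log2 scale for the 29 members described by library and for their mean level, in 60 groups. It passed the 95% critical value for 4 libraries in 2 groups, where chance alone flags about 1 group in 20. Ttk stood apart in H4, which was low against the level values of H1, H2 and H3 (ratio 0.982). Ube2c stood apart in H3, which was high (ratio 0.855).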

How the results depend on the processing

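No paired analysis was possible because the labels give the libraries no shared replicate numbers. Over the 18 alternatives, the median log2 fold change of the members stayed above 0 and within the spread between libraries (0.53) of its value of 0.90, and in each setting at most 2 of the members tested were not higher in endFoxf1+/-. With a minimum TPM of 5, 21 members were tested and 20 were higher, since fewer genes passed. With array weights 148 genes and 11 members passed the adjusted threshold in limma, against 0 and 0, and without both H3 and H4 3 genes and no member passed. Leaving out 1 library at a time gave 0 to 1 genes and no member past the threshold (1 without C1 and 1 without H3). The number of members whose groups did not overlap was 11 with all libraries, 32 without both H3 and H4, and 11 to 32 when 1 library was left out, with 32 reached without H4, by the construction of the count. Of all genes tested, 5.04% did not overlap in either direction with all libraries, 24.4% without both H3 and H4, 9.36% without H4, and 6.32 to 10.2% over the settings that left out 1 library. Unadjusted p-values under 0.05 were found for 8 of 38 members without C3 (3.26% of all genes tested) and for 33 without H4 (5.95% of all genes tested).

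Of the values of the 29 members described by library, 11 passed the threshold under an alternative (all with array weights), 4 turned direction, and the others kept both. Nek2 turned to 0.47 with array weights and 0.44 without both H3 and H4, Kif23 to -0.069 without H2 and Ndc80 to -0.14 without H3 (leaving out 1 library gave -0.069 to 0.83 for Kif23 and -0.14 to 1.14 for Ndc80), and the cause was not tested. Quantile normalization and median-ratio scaling moved the median of all genes from -0.17 to -0.0077 and -0.016, and the share of genes above 0 from 32.0% to 49.2% and 48.2%, while the median member stayed 1.07 and 1.08 above the median of all genes. Without H3 alone it was 0.52 above. Array weights moved that share to 69.3% and the absence of both H3 and H4 to 70.7%. Depth is unknown, so the precision of members near 1 TPM, as in H4, could not be given.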
